A study of Mus musculus with 18 samples.

Results

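The genes described here encode enzymes of heme synthesis in the liver, together with 1 enzyme that acts on a product of heme breakdown. They were chosen by gene name: Alas1, Alas2, Alad, Uros, Urod, Cpox, Ppox, Fech and Blvrb, which are 9 of the 54532 genes listed in the liver RNA-seq tables. No measured value or threshold entered the choice, but the list was put together with earlier results of these libraries known, so the adjusted p-values below describe each gene and are no independent evidence about the list. All 9 were found in both tables, and all 9 reached the mean level of 0.5 FPKM in each table that a test required (FPKM, fragments per kilobase of gene after correction for library size).

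The study asked how dietary riboflavin (vitamin B2), the precursor of the cofactors FMN and FAD, affects the fasting liver and whether fenofibrate, an agonist of the nuclear receptor PPARα, changes that response. Whole liver was taken from male wild-type C57BL/6J mice, which entered the diets at 4 wk of age and were all fasted overnight. Without the drug, 5 mice were fed a control diet (Ctrl) and 5 the more strongly riboflavin-deficient of the study's diets (B2D) for 1 month. In a separate experiment, 4 control-diet mice (Ctrl+FF) and 4 B2D mice (B2D+FF) were kept on their diets for 9 weeks, were given fenofibrate (FF) by gavage from week 7 to week 9 and received the last dose 2 hours before harvest. Each mouse gave 1 library, and mice are numbered within each group in accession order. The experiments differ in the drug, in how long the diets lasted and in the table within which values were normalized, and these cannot be told apart. Levels in the 2 experiments are therefore given side by side, and only diets within an experiment were compared directly.

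Heme synthesis starts and ends in the mitochondrion. Aminolevulinate synthase joins glycine and succinyl-CoA, cytosolic enzymes assemble and trim a porphyrin ring, and mitochondrial enzymes oxidize the ring and insert iron. In hepatocytes most heme goes to cytochrome P450 enzymes, and the first step is rate-limiting and is held back by heme itself. Protoporphyrinogen oxidase, the product of Ppox, carries FAD, and the product of Blvrb is a cytosolic flavin and biliverdin reductase, so both are directly tied to the vitamin that the diet lacks.

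From 15320729 to 21898502 reads per library were counted on genes. The liver label was checked against hepatocyte markers: Alb, encoding albumin, had a mean FPKM of 24777 in Ctrl, 25073 in B2D, 15529 in Ctrl+FF and 12138 in B2D+FF. Cholangiocyte, stellate and endothelial markers had summed FPKM of at most 2.86, 42.0 and 30.5 in any library, and none of them passed the test in either experiment. The libraries are of bulk tissue, in which fewer cells of a type and less RNA per cell cannot be told apart.

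Without fenofibrate, 3 of the 9 genes fell in B2D: the synthases Alas1 and Alas2 and the dehydratase gene Alad, which make up the first and second steps of the pathway. Among all 11574 genes tested, 1.94% were called lower. Log2 fold changes of the other 6 genes were all below 0, between -0.29 and -0.06, and none of them passed. All 9 genes had log2 fold changes below 0, against 50.2% of all genes, with a median of -0.29 for the 9 genes and 0.00 for all genes. The groups did not overlap for 4 of the 9 genes, with B2D the lower in each (Alas1, Alad, Urod and Fech), against 2.89% of all genes.

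**Figure D1:**
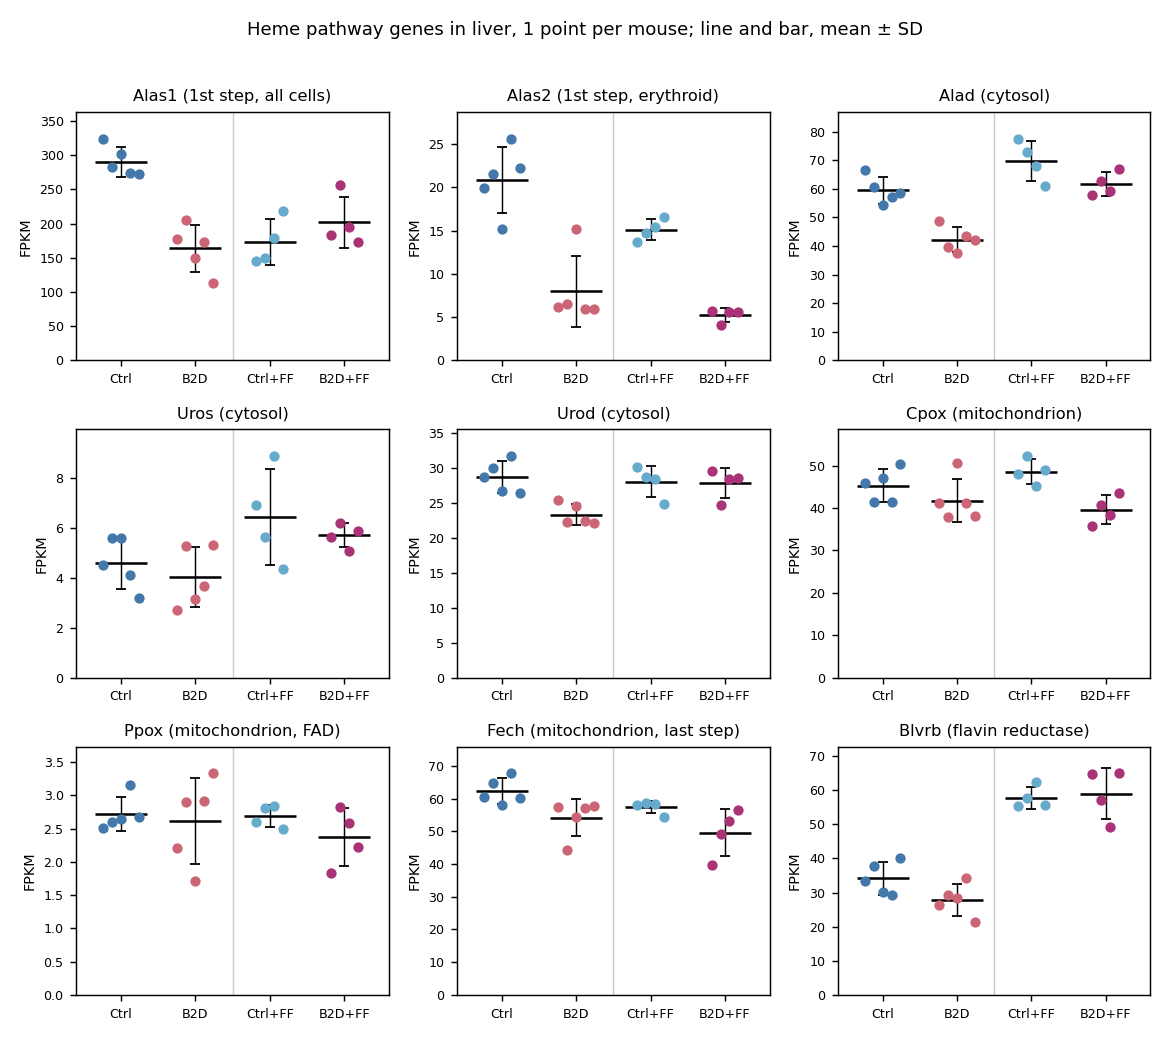
FPKM of the 9 genes in each mouse (y axis, linear, from 0) by group (x axis), with 1 point per mouse and the group mean ± SD as a line and bar. The grey line separates the experiments, whose levels are side by side only. Every B2D mouse lies under every Ctrl mouse for Alas1, Alad, Urod and Fech, and every B2D+FF mouse under every Ctrl+FF mouse for Alas2 and Cpox.

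Alas1 encodes the housekeeping aminolevulinate synthase, the rate-limiting enzyme of heme synthesis in hepatocytes. The gene (ENSMUSG00000032786) spans bases 106233455 to 106248654 of chromosome 9 on the minus strand of GRCm38. Its FPKM in Ctrl mice 1 to 5 was 324, 283, 301, 273 and 272. In B2D mice 1 to 5 it was 177, 206, 150, 173 and 113. The highest B2D mouse stayed below the lowest Ctrl mouse, and the B2D mice spread more widely, with a coefficient of variation of 21.2% against 7.54%. Ctrl averaged 291 ± 21.9 and B2D 164 ± 34.7 (SD, n = 5 each), so that B2D stood at 0.563 of Ctrl. On the log2(FPKM + 1) scale used for every test here, which understates changes of low genes, the log2 fold change was -0.85 ± 0.15 (SE; limma, Benjamini-Hochberg adjusted p = 0.0143). Between 13211 and 36680 reads lay behind these values in the 10 libraries, so counting error was small beside the spread of the mice.

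With fenofibrate Alas1 was not called. In Ctrl+FF mice 1 to 4 the FPKM of Alas1 was 145, 149, 179 and 218, and in B2D+FF mice 1 to 4 it was 183, 256, 195 and 173. The diets overlapped, with the highest value in B2D+FF 2 and the lowest in Ctrl+FF 1. Means were 173 ± 33.9 (SD, n = 4) and 202 ± 37.2 (SD, n = 4). Its log2 fold change was 0.23, with a 95% interval from -0.15 to 0.60 (limma, Benjamini-Hochberg adjusted p = 0.471). Side by side, Alas1 ran from 272 to 324 in Ctrl and 113 to 206 in B2D, and from 145 to 218 in Ctrl+FF and 173 to 256 in B2D+FF. Levels were not tested across the experiments, which differ in the drug, the time on the diets and the table.

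The difference of the diet effects of Alas1, with minus without fenofibrate, was 1.08 on the log2 scale with a 95% interval from 0.59 to 1.56, in 1 limma fit of all 18 libraries. Its unadjusted p was 0.000187 and its Benjamini-Hochberg adjusted p 0.0581, so it did not pass, although the interval lay wholly above 0. Across all 11862 genes of that fit, 0.228% were called, and none of the 9 genes was, while 3 of them (Alas1, Alad and Urod) had an unadjusted p below the 0.05 level, as did 11.9% of all genes. The adjusted p for Alas1 was 0.0491 when the filter was raised to 5 FPKM and 0.0216 with library weights estimated from the data, and it was 0.0468 without B2D 1, 0.0413 without B2D 2 and 0.0308 without Ctrl+FF 4, but 0.141 without Ctrl+FF 2.

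Alas2 encodes the second aminolevulinate synthase, which is used mainly by developing red blood cells. The gene (ENSMUSG00000025270) spans bases 150547375 to 150570638 of chromosome X on the plus strand. It fell in both experiments. Its upstream sequence is shown because it was the 1 gene of the 9 that was called in both experiments. The stretch ends just before the first annotated base of the gene, is given 5′ to 3′ on the gene's strand and comes from RefSeq promoters of GRCm38 (chrX:150547167-150547374). It holds 208 of the 250 bases before the RefSeq start, and its last base lies 43 bases before that start. Capitals mark, from left to right, matches to the core of a nuclear receptor site, which reads AGGTCA, to a TATA box and to a GATA motif. They begin 245, 209 and 86 bases before the RefSeq start. The TATA box, searched as TATAAA, and the GATA motif lie on the opposite strand and so appear reversed and complemented.
Alas2: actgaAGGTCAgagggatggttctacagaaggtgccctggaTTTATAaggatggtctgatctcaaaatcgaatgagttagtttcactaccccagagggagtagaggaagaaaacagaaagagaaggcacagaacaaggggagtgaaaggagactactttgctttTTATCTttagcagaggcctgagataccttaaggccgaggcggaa
Searched on both strands of the 250 bases before each of 32851 RefSeq starts, the nuclear receptor core occurred in 14% of promoters, the TATA box in 12.4% and the GATA motif (searched as AGATAA) in 9.99%. These matches describe the letters only.

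The FPKM of Alas2 in Ctrl mice 1 to 5 was 20.0, 21.5, 15.1, 25.6 and 22.2. In B2D mice 1 to 5 it was 6.13, 6.58, 15.2, 6.00 and 5.95. Of the B2D mice, 4 lay below 7 and B2D 3 lay level with the lowest Ctrl mouse, Ctrl 3, so the diets overlapped by that mouse. Ctrl averaged 20.9 ± 3.82 and B2D 7.97 ± 4.05 (SD, n = 5 each), which gave a log2 fold change of -1.36 ± 0.23 (SE; limma, Benjamini-Hochberg adjusted p = 0.0114). Without B2D 3 it was -1.59 with an adjusted p of 0.000329. With fenofibrate the FPKM of Alas2 was 13.7, 14.7, 15.4 and 16.6 in Ctrl+FF mice 1 to 4 and 5.72, 4.11, 5.65 and 5.56 in B2D+FF mice 1 to 4. The diets were well apart, with means of 15.1 ± 1.20 and 5.26 ± 0.768 (SD, n = 4 each). The log2 fold change was -1.37 ± 0.11 (SE; limma, Benjamini-Hochberg adjusted p = 0.000918), and Alas2 was the 1 gene of the 9 that was called with fenofibrate, where 2.21% of 11878 genes were called lower. In that experiment 7 of the 9 genes had log2 fold changes below 0, against 47.2% of all genes, and their median was -0.14 against 0.01. The difference of its diet effects was -0.01 with a 95% interval from -0.62 to 0.60 (adjusted p = 0.994).

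Alas2 is an erythroid gene, and whole liver holds blood, so its values are given with those of erythroid markers. Globin transcripts were present in every library, and none of the 5 erythroid markers tested (Hba-a1, Hba-a2, Hbb-bs, Hbb-bt and the transcription factor gene Klf1) passed in limma in either experiment, with 0 without and 1 with fenofibrate (Klf1, 0.26 on the log2 scale) at an unadjusted p under 0.05, a level that 18.4% and 21.2% of all genes reached. The 4 globin genes had log2 fold changes below 0 in both experiments (Hba-a2 was at 0.06 without Ctrl 1 in the experiment without fenofibrate), and the median over the 5 markers was -0.30 without and -0.49 with fenofibrate, against 0.00 and 0.01 for all genes. The FPKM of Hbb-bs, encoding a beta globin, was 130, 137, 132, 96.6 and 112 in Ctrl mice 1 to 5 and 47.5, 130, 227, 61.7 and 103 in B2D mice 1 to 5. The B2D mouse with the highest Alas2, B2D 3, also had the highest Hbb-bs, and the diets overlapped. With fenofibrate Hbb-bs was 244, 350, 360 and 267 in Ctrl+FF and 425, 180, 225 and 253 in B2D+FF, again overlapping, and B2D+FF 1 was the highest of all 18 mice while its Alas2 was 5.72. The log2 fold change of Hbb-bs was -0.30 without and -0.23 with fenofibrate (limma, Benjamini-Hochberg adjusted p = 0.676 and 0.649). With fenofibrate it was the globin nearest to 0, the others being Hba-a1 (-0.49), Hbb-bt (-0.57) and Hba-a2 (-0.72), with adjusted p from 0.244 to 0.294 in limma. For these 3 genes, B2D+FF 2, 3 and 4 lay below every Ctrl+FF mouse and B2D+FF 1 did not, and Hba-a2 passed without B2D+FF 1 (-1.10; adjusted p = 0.0257). The alpha globin genes and the beta globin genes are near-identical copies of each other, so their single values are uncertain.

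Expressed per 1000 FPKM of Hbb-bs, Alas2 had a median of 158 in Ctrl (range 114 to 265) and 66.8 in B2D (50.7 to 129), and a median of 49.5 in Ctrl+FF (42.1 to 61.9) and 22.4 in B2D+FF (13.5 to 25.1). The ratio overlapped between the diets without fenofibrate and did not with it. That separation depended on the globin chosen. Ctrl+FF 2 had 14.7 FPKM of Alas2 beside 56.4 of Hba-a2, and B2D+FF 4 had 5.56 beside 17.5, so a ratio to Hba-a2 overlapped with fenofibrate. Ratios to Hba-a1 or Hbb-bt did not overlap there. Across libraries Alas2 and Hbb-bs had a Pearson correlation of 0.51 over the 10 libraries without and 0.40 over the 8 with fenofibrate, and Alas2 and Hba-a1 had 0.53 and 0.67. The points share a table and 2 diets. The summed FPKM of the erythroid list ranged from 160 to 233 in Ctrl, 88.1 to 378 in B2D, 425 to 617 in Ctrl+FF and 283 to 687 in B2D+FF. The red cell membrane and erythroid factor genes Slc4a1, Epb42, Gata1 and Rhag had mean FPKM of at most 0.0755 in any group. The part of blood cells in the fall of Alas2 was not tested.

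**Figure D2:**
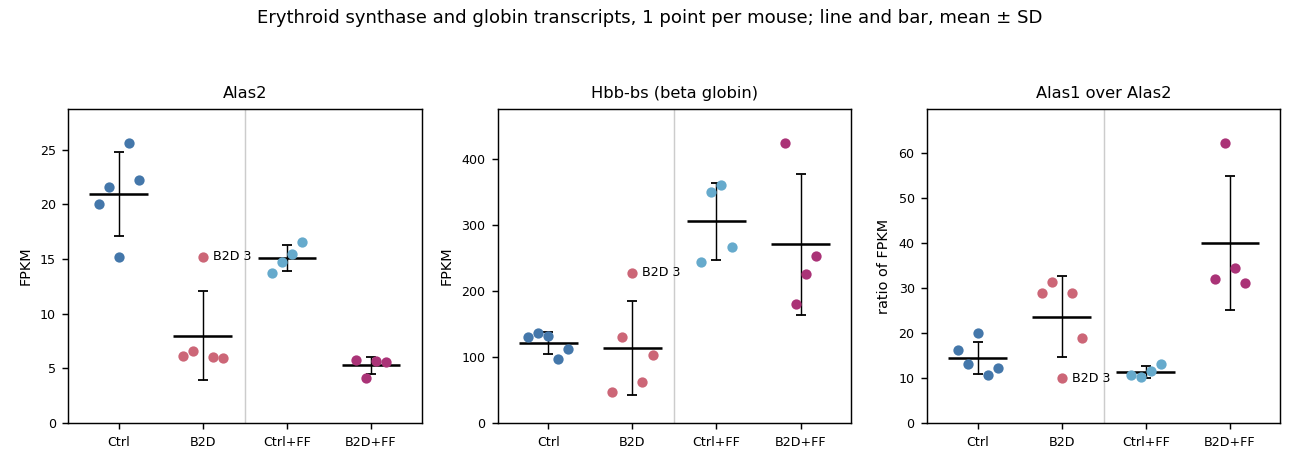
FPKM of Alas2 (left), FPKM of the beta globin gene Hbb-bs (middle) and the ratio of Alas1 to Alas2 FPKM (right) in each mouse, by group on the x axis, with the mean ± SD as a line and bar. B2D 3 stands at 15.2 for Alas2 and 227 for Hbb-bs, the highest B2D mouse in both, and at 9.88 for the ratio, the lowest B2D mouse.

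Exons of Alas2 share 311 of its 2403 bases with Apex2, a DNA repair gene on the opposite strand, and the library kit is not stated to keep strand, so reads there cannot be assigned to 1 gene. Apex2 was low, with a mean FPKM between 0.853 and 1.56 by group, and its log2 fold change was 0.31 without and 0.14 with fenofibrate, opposite in sign to that of Alas2. The values of Alas1 share 465 of 6174 exon bases with an antisense transcript, 4930500F10Rik, whose mean FPKM was at most 0.0341 in any group.

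Because Alas1 and Alas2 encode enzymes for the same step, their FPKM, a level per length, can be set against each other. Alas1 was the higher in all 18 mice. The ratio of Alas1 to Alas2 had a median of 13.1 in Ctrl (range 10.7 to 19.9) and 28.8 in B2D (9.88 to 31.2), and a median of 11.1 in Ctrl+FF (10.1 to 13.2) and 33.3 in B2D+FF (31.1 to 62.3). Without fenofibrate the ratios overlapped through B2D 3 and B2D 5, and with fenofibrate they did not.

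Alad encodes aminolevulinate dehydratase (porphobilinogen synthase), the zinc enzyme of the cytosol that joins a pair of aminolevulinate molecules. The gene (ENSMUSG00000028393) spans bases 62509169 to 62519918 of chromosome 4 on the minus strand. The stretch before its upstream RefSeq start (chr4:62520064-62520313, minus strand, 5′ to 3′ on the gene's strand, RefSeq, GRCm38) holds an E-box, CACGTG, in capitals, 105 bases before that start, a motif found in 6.02% of the same 32851 promoters.
Alad: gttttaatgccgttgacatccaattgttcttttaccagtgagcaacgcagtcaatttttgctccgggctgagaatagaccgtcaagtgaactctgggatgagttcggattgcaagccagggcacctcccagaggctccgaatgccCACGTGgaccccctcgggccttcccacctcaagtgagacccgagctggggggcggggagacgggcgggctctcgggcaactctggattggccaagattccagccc
Entries were found for 8 of the 9 genes, all but Fech. The stretches of Alad and Alas2 hold no motif in common among the 6 searched, which also included an NRF1 site core, TGCGCA, and the core of the cAMP response element, which is TGACGT. A second E-box lay 28 bases before the other start of Alad. Urod and Uros, which did not pass, also held an E-box, and Cpox held an NRF1 site core. Alas1, Ppox and Blvrb held none of the 6.

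The FPKM of Alad in Ctrl mice 1 to 5 was 66.7, 60.5, 54.2, 57.3 and 58.6, and in B2D mice 1 to 5 it was 48.6, 39.5, 37.6, 43.6 and 42.0. Every B2D mouse lay below every Ctrl mouse. Means were 59.4 ± 4.64 and 42.3 ± 4.22 (SD, n = 5 each). The log2 fold change was -0.48 ± 0.10 (SE; limma, Benjamini-Hochberg adjusted p = 0.0284). The groups did not overlap, yet the adjusted p was close to the threshold: it passed without Ctrl 3 (0.0324), Ctrl 5 (0.0481) or B2D 1 (0.0238), and did not in the 7 fits that left out Ctrl 1, Ctrl 2, Ctrl 4, B2D 2, B2D 3, B2D 4 or B2D 5, where it lay between 0.0517 and 0.0788. It was also lost with quantile normalization (0.0733) and, as were the calls of Alas1 and Alas2 (0.0535 for both), when genes of any level were tested together (0.0507). With fenofibrate the values were 77.5, 72.7, 67.9 and 61.2 in Ctrl+FF mice 1 to 4 and 57.8, 62.9, 59.2 and 66.9 in B2D+FF mice 1 to 4. The diets overlapped, with a log2 fold change of -0.17 (95% interval -0.40 to 0.05; limma, Benjamini-Hochberg adjusted p = 0.353). The difference of its diet effects was 0.31 (95% interval 0.03 to 0.59; adjusted p = 0.372).

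**Figure D3:**
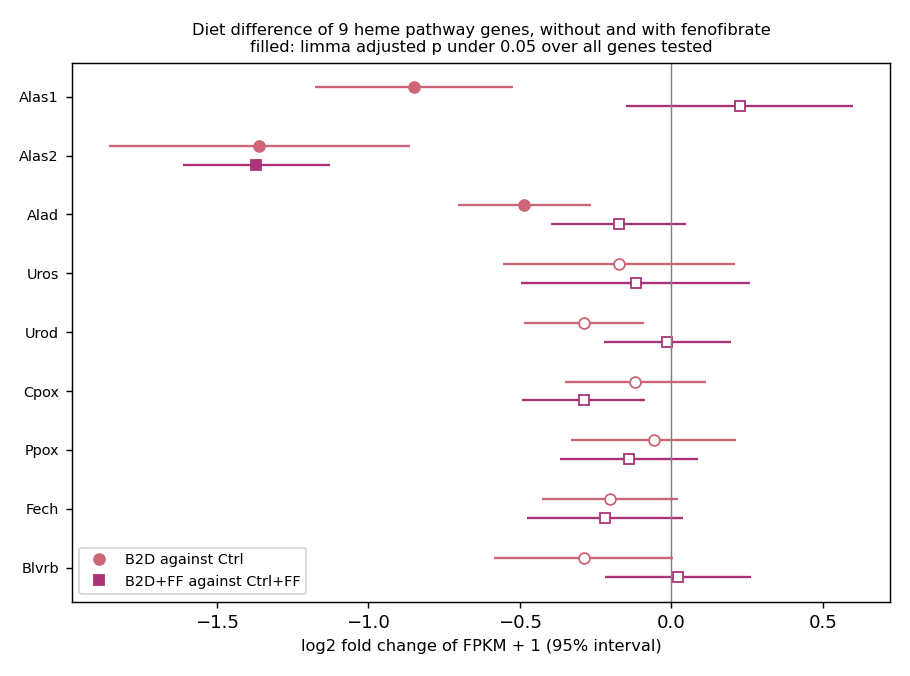
Log2 fold change of FPKM + 1 between diets (x axis) with its 95% interval for each of the 9 genes (y axis), circles without and squares with fenofibrate, filled where the limma adjusted p was under 0.05. Alas2 is filled in both, at -1.36 and -1.37. Alas1 is at -0.85 without and 0.23 with fenofibrate, the 1 gene whose intervals do not overlap, while the difference of its diet effects did not pass.

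Uros and Urod encode the cytosolic enzymes that close and decarboxylate the porphyrin ring, uroporphyrinogen III synthase and uroporphyrinogen decarboxylase. The FPKM of Urod was 28.7, 30.0, 26.7, 31.7 and 26.4 in Ctrl and 25.4, 22.2, 24.5, 22.4 and 22.1 in B2D. All B2D mice were below all Ctrl mice by a narrow margin, at 0.812 of the Ctrl mean, and the log2 fold change of -0.29 (95% interval -0.49 to -0.09) did not pass (limma, Benjamini-Hochberg adjusted p = 0.121), although it did in 1 fit of all 4 groups (0.0423). With fenofibrate Urod ranged from 24.8 to 30.2 in Ctrl+FF and 24.6 to 29.5 in B2D+FF, and its log2 fold change was -0.01 (95% interval -0.22 to 0.20). Uros was low and variable, from 3.20 to 5.61 in Ctrl, 2.72 to 5.31 in B2D, 4.36 to 8.88 in Ctrl+FF and 5.09 to 6.21 in B2D+FF. Its log2 fold changes of -0.17 and -0.12 were smaller than their intervals, which reached from -0.56 to 0.21 and from -0.49 to 0.26.

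The last 3 enzymes work in the mitochondrion. Cpox encodes coproporphyrinogen oxidase. Its FPKM was 45.9, 41.5, 47.2, 41.5 and 50.4 in Ctrl and 41.1, 37.8, 50.6, 41.3 and 38.2 in B2D. All B2D values lay below the lowest Ctrl value apart from that of B2D 3, which was the highest of all 10, and the log2 fold change was -0.12 (limma, Benjamini-Hochberg adjusted p = 0.584). With fenofibrate Cpox was 48.1, 52.3, 45.2 and 48.9 in Ctrl+FF and 35.9, 40.7, 38.4 and 43.7 in B2D+FF. Here the diets did not overlap, as was so for 2 of the 9 genes (Alas2 and Cpox), against 6.44% of all genes with the deficient diet lower. The log2 fold change was -0.29 (95% interval -0.49 to -0.09), which did not pass (limma, Benjamini-Hochberg adjusted p = 0.104).

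Ppox, the FAD-carrying member, had the lowest mean level of the 9 in every group. Its FPKM was 2.51, 2.60, 2.64, 3.16 and 2.68 in Ctrl mice 1 to 5 and 2.21, 2.91, 1.72, 2.91 and 3.33 in B2D mice 1 to 5. The B2D mice lay on both sides of the Ctrl mice, with a coefficient of variation of 24.6% against 9.32%. The log2 fold change was -0.06 (95% interval -0.33 to 0.21; limma, Benjamini-Hochberg adjusted p = 0.840). With fenofibrate it was 2.60, 2.81, 2.84 and 2.50 in Ctrl+FF and 1.83, 2.83, 2.59 and 2.22 in B2D+FF, overlapping, with a log2 fold change of -0.14 (95% interval -0.37 to 0.09; adjusted p = 0.465). From 136 to 286 reads lay behind each value without fenofibrate. Exons of Ppox share 791 of 4515 bases with B4galt3 on the other strand, a galactosyltransferase gene with a mean FPKM between 0.838 and 1.16 by group, and reads in the shared bases cannot be assigned to 1 gene.

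Fech encodes ferrochelatase, which inserts iron in the last step. Its FPKM was 60.4, 64.8, 58.2, 67.8 and 60.3 in Ctrl and 57.3, 44.2, 54.5, 57.0 and 57.9 in B2D. The highest B2D mouse (57.9) fell just short of the lowest Ctrl mouse (58.2), and the log2 fold change of -0.20 (95% interval -0.43 to 0.02) did not pass (limma, Benjamini-Hochberg adjusted p = 0.317). With fenofibrate Fech was 58.2, 58.6, 58.4 and 54.5 in Ctrl+FF and 39.6, 49.3, 53.2 and 56.4 in B2D+FF. The diets overlapped only through Ctrl+FF 4 and B2D+FF 4, with a log2 fold change of -0.22 (95% interval -0.47 to 0.04; adjusted p = 0.311). The table's length for Fech is 2901 bases, shorter than the 13838 exon bases of its GENCODE entry, while the lengths of the other 8 genes match, so the level of Fech relative to other genes depends on that length.

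Blvrb encodes biliverdin reductase B, also known as flavin reductase. Its FPKM was 33.3, 37.8, 30.0, 29.3 and 40.2 in Ctrl and 26.2, 29.2, 28.3, 34.2 and 21.4 in B2D. The lowest B2D mouse was B2D 5 and B2D 4 lay among the Ctrl mice, and the log2 fold change was -0.29 (95% interval -0.58 to 0.01; limma, Benjamini-Hochberg adjusted p = 0.283). With fenofibrate it was 55.4, 57.6, 62.3 and 55.7 in Ctrl+FF and 64.7, 57.1, 49.2 and 65.0 in B2D+FF. The diets overlapped and the log2 fold change was 0.02 (95% interval -0.22 to 0.26; adjusted p = 0.930). Side by side, Blvrb ran from 21.4 to 40.2 FPKM in the experiment without fenofibrate and from 49.2 to 65.0 in that with it. The drug, the time on the diets and the table differ together there, so this was not tested.

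By mean FPKM, Alas1 was the highest of the 9 in every group and its range overlapped that of no other gene. In Ctrl it was followed by Fech and Alad, whose ranges overlapped, then Cpox, then Blvrb and Urod, which overlapped, then Alas2, Uros and Ppox. In B2D the order was the same, with Alad overlapping Cpox and Uros overlapping Ppox. In the fenofibrate experiment Alad and Blvrb came before Fech, and in B2D+FF Alas2 (5.26) ranked below Uros (5.71) with overlapping ranges, having been above Uros without overlap in the 3 other groups. The summed FPKM of the 9 genes was 534 to 586 in Ctrl, 309 to 393 in B2D, 437 to 487 in Ctrl+FF and 424 to 504 in B2D+FF.

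Some pairs of these genes varied together across mice without fenofibrate, and did so less, or in opposite directions, with it. Over the 10 libraries without fenofibrate, the Pearson correlation of Alas1 was 0.84 with Alad and 0.74 with Alas2, and over the 8 with fenofibrate it was -0.71 and -0.48. Alad and Urod had 0.83 and 0.39. These values include the difference between diets, and the libraries of a table share their scaling. Among 8651 genes whose mean reached 1 FPKM in both tables, the protein-coding genes most like Alas1, by the lower of its correlations in the 2 tables, were Fam76a (0.78 and 0.82) and Pgam5 (0.80 and 0.77). For Ppox the first 3 were Gckr (0.84 and 0.90), Sema4g (0.85 and 0.78) and Gsdmd (0.76 and 0.78), and for Blvrb they were Tmem37 (0.76 and 0.83), Zfp706 (0.75 and 0.81) and Rnh1 (0.74 and 0.74).

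The other genes that feed heme synthesis include mitochondrial carriers and electron donors. Of 14 such genes tested in each experiment, 2 fell in B2D without fenofibrate and 2 in B2D+FF, against 1.94% and 2.21% of all genes called lower. None rose, against 0.769% and 2.24% of all genes called higher. The median log2 fold change of the 14 was -0.12 and 0.06, against 0.00 and 0.01 for all genes. Without fenofibrate, Abcb10, a transporter of the inner mitochondrial membrane needed for heme synthesis, went from 6.94 to 4.41 in mean FPKM (log2 fold change -0.55; limma, Benjamini-Hochberg adjusted p = 0.0205). Fdx1, encoding a ferredoxin that hands on electrons from a flavoprotein reductase, went from 26.4 to 17.6 (-0.55; adjusted p = 0.0346). With fenofibrate the falls were in the mitochondrial iron importer Slc25a37 (mitoferrin-1, used most by erythroid cells), from 8.26 to 5.39 (-0.54; adjusted p = 0.0182), and in Slc25a38, a mitochondrial glycine carrier also known from erythroid cells, from 8.07 to 6.03 (-0.37; adjusted p = 0.0448). Abcb10 no longer passed without Ctrl 2 or Ctrl 4 (adjusted p up to 0.0657), nor Slc25a37 without Ctrl+FF 1 or Ctrl+FF 2 (up to 0.0651). Of the fits that left out a library, Fdx1 passed only in those without Ctrl 3, Ctrl 5 or B2D 1 (up to 0.102 otherwise) and Slc25a38 only in that without B2D+FF 2 (up to 0.118 otherwise).

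Heme breakdown runs from heme oxygenase through biliverdin reductase to the conjugation of bilirubin. Of 7 such genes tested in limma, none passed in either experiment, while 2 without and 5 with fenofibrate had an unadjusted p under 0.05, against 18.4% and 21.2% of all genes. Hmox1, encoding inducible heme oxygenase, had a mean FPKM of 8.42 in Ctrl, 11.5 in B2D, 9.90 in Ctrl+FF and 15.2 in B2D+FF, with log2 fold changes of 0.40 and 0.52 (limma, Benjamini-Hochberg adjusted p = 0.137 and 0.203). The constitutive Hmox2 had 0.03 and 0.32, the main biliverdin reductase Blvra -0.19 and 0.20, the flavoprotein Por (cytochrome P450 reductase, which also serves heme oxygenase) 0.05 and 0.40, and the bilirubin-conjugating Ugt1a1 0.22 and 0.54. With fenofibrate, Hmox1 passed without B2D+FF 3 (0.0340), and Por (0.0453) and Ugt1a1 (0.0189) passed without B2D+FF 2. Ugt1a1 also passed with array weights (0.0374) and with all 4 groups in 1 fit (0.0445). The lowest adjusted p of the 7 in both experiments belonged to Slco1b2, encoding a hepatocyte carrier that takes up organic anions such as bilirubin, which had a mean FPKM of 367 in Ctrl and 240 in B2D, and of 169 in Ctrl+FF and 111 in B2D+FF. The diets overlapped without fenofibrate and did not with it. Its log2 fold changes were -0.64 and -0.60 (limma, Benjamini-Hochberg adjusted p = 0.134 and 0.0544). Without fenofibrate its adjusted p stayed above the threshold in every alternative run (0.0502 to 0.298). With it, the adjusted p ran from 0.0318 to 0.137 and passed in 5 of 8 alternative settings, voom on recovered reads and a minimum of 5 FPKM among them, and in 2 of 8 fits that left out a library. Heme and porphyrin transport genes gave no call in limma among the 12 tested in either experiment (4 and 2 at an unadjusted p under 0.05), with medians of -0.15 and 0.01.

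None of 12 regulators of Alas1 and Hmox1 passed in limma in either experiment. At an unadjusted p under 0.05 were 4 without and 5 with fenofibrate, against 18.4% and 21.2% of all genes. Ppargc1a, a coactivator that raises Alas1 in fasting, had log2 fold changes of 0.61 and 0.68 (limma, Benjamini-Hochberg adjusted p = 0.195 and 0.111). The clock repressor Nr1d1 (REV-ERBα), which is itself bound by heme, had 0.49 and 0.43, Nr1d2 -0.35 and 0.06, and Ppara, the receptor of fenofibrate, -0.03 and -0.30. All adjusted p-values of these genes were above the 0.05 threshold, and Ppargc1a passed without Ctrl 3 (0.0207) and, with fenofibrate, without B2D+FF 1 (0.0304) or with array weights (0.0411).

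Of 16 hemoprotein genes tested, which hold the heme that the pathway makes, 1 rose in B2D and 5 rose in B2D+FF, and none fell, against 0.769% and 2.24% of all genes called higher. Their median log2 fold change was -0.08 without and 0.16 with fenofibrate. Cyp1a2, which did not pass, stood at 1906 FPKM in Ctrl 5, against a Ctrl median of 91.3. The gene that rose in both was Cyp2b10, a xenobiotic-induced cytochrome P450, from 0.0770 to 3.72 in mean FPKM without and from 1.60 to 43.7 with fenofibrate (log2 fold changes 1.82 and 4.19; limma, Benjamini-Hochberg adjusted p = 0.0274 and 0.000356). Cyp2b10 belongs to a family of related genes, and the assignment of reads among them was not examined. With fenofibrate the others were Cyp2c29 (1.05; adjusted p = 0.0145), Cyp3a11 (0.76; 0.0355), the cytochrome c gene Cycs (0.66; 0.0182) and the cytochrome c1 gene Cyc1 (0.43; 0.0374). When a library was left out, Cyp3a11 kept its call only without Ctrl+FF 3 or B2D+FF 1, and Cyc1 only without B2D+FF 2 or B2D+FF 3. Cycs lost its call without Ctrl+FF 1, Ctrl+FF 2, Ctrl+FF 3 or B2D+FF 4. Without fenofibrate, the call of Cyp2b10 was lost without Ctrl 1, Ctrl 2, Ctrl 4 or B2D 2, and its log2 fold change ran from 1.76 to 5.31 over the alternative settings, with a Ctrl level near 0.

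**Figure D4:**
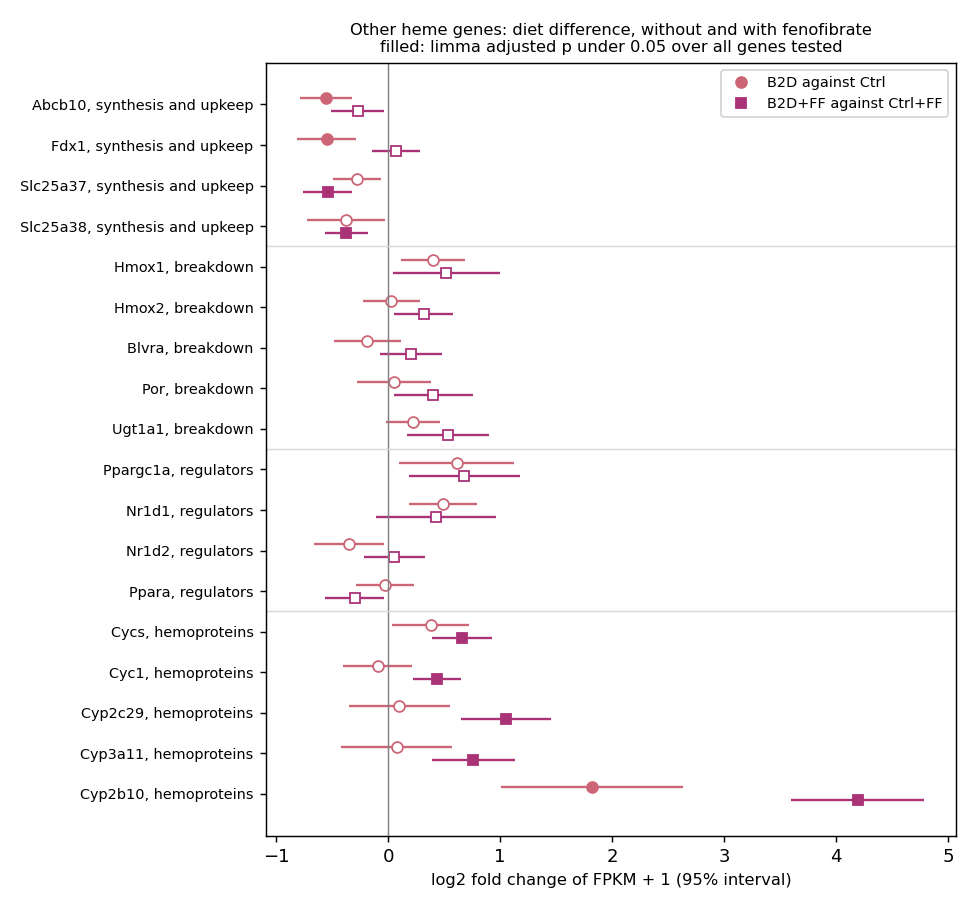
Log2 fold change of FPKM + 1 between diets (x axis) with its 95% interval for carriers and donors that passed the test, for heme breakdown genes, for regulators and for hemoproteins that passed (y axis), circles without and squares with fenofibrate, filled where the limma adjusted p was under 0.05. Filled points lie below 0 for Abcb10, Fdx1, Slc25a37 and Slc25a38 and above 0 for the 5 hemoproteins, up to 4.19 for Cyp2b10.

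Markers of other liver cells moved with the diets in part. Of 10 Kupffer cell and macrophage markers tested, 9 had log2 fold changes below 0 without and 8 with fenofibrate, against 50.2% and 47.2% of all genes. Their median was -0.24 without and -0.23 with it, against 0.00 and 0.01 for all genes. The mean FPKM of Marco went the other way, from 2.12 to 4.87 without and from 1.83 to 7.96 with fenofibrate, where B2D+FF 1 stood at 24.6. Clec4f (-0.47) and C1qa (-0.50) passed without fenofibrate (limma, Benjamini-Hochberg adjusted p = 0.0412 and 0.0275), against 1.94% of all genes called lower. No marker passed with it. At an unadjusted p under 0.05 were 5 of the 10 without and 1 with fenofibrate, against 18.4% and 21.2% of all genes. Clec4f kept its call only without Ctrl 3, and C1qa only without Ctrl 3, Ctrl 5, B2D 1 or B2D 5. The summed FPKM of the list ranged from 139 to 167 in Ctrl and 109 to 147 in B2D, overlapping, and from 112 to 190 in Ctrl+FF and 75.7 to 196 in B2D+FF. Kupffer cells take up old red cells and break down their heme, and the part of these markers in the values of the 9 genes was not tested. Of 7 hepatocyte markers, none passed without fenofibrate. Ass1 (0.75) and Pck1 (0.84) rose with it (limma, Benjamini-Hochberg adjusted p = 0.0455 and 0.0407), against 2.24% of all genes called higher. At an unadjusted p under 0.05 were 1 without and 5 with fenofibrate, against 18.4% and 21.2% of all genes. Cps1 did not pass, with a mean FPKM of 1007 in Ctrl, 1461 in B2D, 515 in Ctrl+FF and 834 in B2D+FF. Albumin (Alb) and transthyretin (Ttr) were lower in B2D+FF than in Ctrl+FF, with log2 fold changes of -0.35 and -0.34 that did not pass (limma, Benjamini-Hochberg adjusted p = 0.114 and 0.104). Neither overlapped between the diets, as was so for 6.44% of all genes with the deficient diet lower. Alb was at least 14652 FPKM in Ctrl+FF and at most 13198 in B2D+FF, and Ttr at least 1684 and at most 1493. Alb passed with a minimum of 5 FPKM (0.0384) and Ttr with array weights (0.0409). Ass1 lost its call whichever library was left out, and Pck1 kept it only without Ctrl+FF 4 or B2D+FF 1.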

How the data were processed

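Liver mRNA libraries (NEBNext Ultra RNA kit, paired ends) were aligned by the authors with STAR to mm10 and counted with featureCounts, and the authors tested genes with DESeq2, per the methods and the submitters' processing notes (versions not given in the sources used here). The authors deposited FPKM values per gene in 2 tables, 1 per experiment, whereas their methods speak of RPKM. Multiplying each value by its gene's length and dividing by a step fitted to each library gave whole numbers of reads, and so the depth. This was checked for nonzero values outside the most highly read genes, of which 100% lay within 0.02 reads of a whole number. The scaling matched median-of-ratios size factors within each table. Genes whose mean over a table reached 0.5 FPKM were taken to log2 after adding 1 and tested in limma 3.58.1 (R 4.3.3, moderated linear models with a trend), each table alone, with Benjamini-Hochberg adjustment over all genes tested and a threshold of 0.05. The difference of diet effects was a contrast in 1 fit of the 18 libraries. Errors are SD over mice or SE of the fit.

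The 9 genes and all lists (from general knowledge) were chosen with earlier results of these data known. Named are the 9 genes, listed genes past the threshold, 9 fixed breakdown and regulator genes, cell markers, and the 3 genes most like Alas1, Ppox and Blvrb. Some genes under this rule are not reported here. Genes singled out beyond this rule (Slco1b2 and Cyp1a2, and Apex2, B4galt3 and 4930500F10Rik, which overlap members) were named after their values were seen. Ahsp and Tf of the marker lists were not matched under those names. Alternatives were another pseudocount, no or a stricter filter, upper quartile rescaling, quantile normalization, array weights, voom on recovered reads, all groups in 1 fit, and each library left out. The labels name no batch, and reads from overlapping genes were not separated.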

Additional observations from a re-analysis of the deposited data

Results flagged for a closer look

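Within groups of 4 or 5 mice, a mouse was picked out where its gap to the nearest other mouse took up an unusually large share of the group's range (Dixon's 95% critical value). Of 128 groups examined over 32 genes, 13 held such a mouse, where chance alone gives about 1 in 20. Among the 9 heme pathway genes, Alas2 stood at 15.2 FPKM in B2D 3 against 5.95 to 6.58 in the other B2D mice, and at 4.11 in B2D+FF 2 against 5.56 to 5.72. B2D 3 also stood apart for Cpox, at 50.6 against 37.8 to 41.3. Ppox was 3.16 in Ctrl 4 against 2.51 to 2.68. Fech was 44.2 in B2D 2 against 54.5 to 57.9, and 54.5 in Ctrl+FF 4 against 58.2 to 58.6, a narrow group in which a small gap sufficed.

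Among the other heme genes, Slc25a37 was 4.35 FPKM in B2D+FF 1, Hmox2 was 21.4 and Ugt1a1 was 67.1 in Ctrl 5, and Ppargc1a was 7.21 in Ctrl 3. Ppara was 53.0 in Ctrl 4 and 60.0 in Ctrl+FF 2, and Cyp2b10 was 10.6 in B2D 4. Each of these 7 stood above the rest of its group except Slc25a37, which stood below. No difference of diet effects between the experiments passed the test for the 9 genes.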

How the results depend on the processing

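No paired analysis was possible because the labels give the mice of different groups no shared replicate numbers. The fall of Alas2 with fenofibrate passed under every alternative run, and those of Alas1 and Alas2 without it passed under all but the fit with no filter, which called 67 genes and 0 of the 9, from 25041 genes tested. All groups in 1 fit gave 731 genes without fenofibrate. With fenofibrate, no filter gave 272 genes and array weights 885, and upper quartile rescaling split the calls into 223 higher and 366 lower against 266 and 263. For the difference of diet effects, 27 genes became 16 with a pseudocount of 0.1, 136 with array weights and 13 with voom, and Alas1 was the 1 member called with array weights or a minimum of 5 FPKM. Leaving out 1 library gave 98 (without Ctrl 4) to 332 genes without fenofibrate, 175 (without Ctrl+FF 1) to 596 with it, and 17 (without Ctrl+FF 2) to 66 (without B2D 1) for the difference, in which 0 to 1 of the 9 genes was called. The cause of these changes was not tested.

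Signs turned only for values near 0 that did not pass. Without fenofibrate, leaving out 1 library moved the log2 fold change of Ppox from -0.127 to 0.041, Hmox2 from -0.044 to 0.095, Por from -0.048 to 0.121, Hba-a2 from -0.436 to 0.062 and Ppara from -0.090 to 0.048, and Ppara was 0.00195 after upper quartile rescaling and 0.068 after quantile normalization. With fenofibrate, the same ran from -0.263 to 0.031 for Uros, -0.067 to 0.042 for Urod, -0.026 to 0.105 for Blvrb and -0.0073 to 0.143 for Nr1d2, and upper quartile rescaling gave -0.038 for Blvrb and -0.0025 for Nr1d2. The difference of diet effects ran from -0.085 to 0.225 for Alas2, -0.091 to 0.204 for Uros and -0.086 to 0.087 for Fech. It was -0.027 for Uros after upper quartile rescaling, and 0.175 for Alas2 and 0.031 for Fech with array weights. The values of Ppox and Uros rest on 136 to 552 reads, and those of Alas2 in B2D+FF on 201 to 281 reads. The part of read depth in their spread was not tested.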
